A study of Mus musculus with 18 samples.

Results

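The 10 genes described here belong to the early transcriptional response and were followed across 2 genotypes and 3 levels of stimulation in cultured mouse mast cells. They were Ier2, Ier3 and Ier5, named immediate early response genes, Btg1 and Btg2 of the BTG family, Klf2, Klf4, Klf6 and Klf10 of the Krüppel-like factor family, and Myc. The genes were chosen by their symbols, and each symbol matched 1 of the 45777 genes in the deposited table. All 10 were among the 17159 genes with enough reads to be tested. The cells were bone marrow-derived mast cells (BMMC), grown from marrow flushed out of mouse femurs and tibias. KO cells carried Sirt6 flox/flox with LysM-Cre, which expresses Cre recombinase from the lysozyme M promoter of myeloid cells. WT cells carried Sirt6 flox/flox without Cre, so the floxed alleles were shared by both genotypes. The series was set up to look for transcriptional differences that follow loss of Sirt6, a nuclear deacetylase. Samples of both genotypes were taken at 3 levels, 0, 20 and 60, and the labels attach no unit to these figures. LPS, a bacterial ligand of TLR4, is the labelled treatment at 20 and 60 and nothing at 0, although FcεRI, through which mast cells sense IgE, is in the title of the series. No age is stated for the mice. Each of the 6 groups held 3 libraries, which carry the numbers 4120, 414 and 6110, for 18 libraries in all.

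Immediate early genes are transcribed within minutes of receptor engagement, because the factors that switch them on are already in the cell and only need to be phosphorylated. Their transcripts are usually short and unstable, so their levels fall again when the signal fades, and a later wave of genes follows. In mast cells this programme is set off through FcεRI and through Toll-like receptors, by way of calcium, MAP kinases and NF-κB. Some of its products drive growth, such as Myc, a transcription factor that raises ribosome production and metabolism. Others restrain it, such as Btg1 and Btg2, which recruit a deadenylase to mRNA and slow proliferation.

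The libraries held 20026054 to 42265435 counts. Genes of mitochondrial DNA took 4.09% to 41.9% of the counts, and 5 libraries were above 20%. The mean mitochondrial share was 13.8%, 6.35% and 14.5% in KO at 0, 20 and 60, and 22.7%, 17.5% and 22.2% in WT. All 13 mast cell markers were detected in every group, with a summed level of 16550 to 48930 CPM per library. CPM stands for counts scaled by library size, here after correction with TMM factors. Sirt6 averaged 16.7, 17.1 and 11.8 CPM in KO at 0, 20 and 60, and 14.6, 14.7 and 10.7 CPM in WT. Counts are summed over the whole gene, so they do not check the deletion of single exons. Whether the 3 numbers are separate animals is not stated, and p-values therefore reflect the scatter of these libraries alone, which may be partly technical. In these bulk libraries, fewer cells that respond and less RNA per cell cannot be told apart.

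The promoters of 4 of the genes are shown for comparison, since their transcripts differed widely in response at 20: Btg2 and Ier3 (large responses), Klf2 (a moderate one) and Btg1 (a small one). Each sequence is the 250 bases before the annotated start in RefSeq (GRCm38.p6), 5′ to 3′ along the gene. Btg2 lies on the minus strand at chr1:134079156-134079405, Ier3 on the plus strand at chr17:35821463-35821712, Klf2 on the plus strand at chr8:72318812-72319061 and Btg1 on the plus strand at chr10:96616751-96617000. Capitals mark TGACGTCA or TGACG, the full and the shorter cyclic AMP response element, on either strand, and in Ier3 the NF-κB consensus.
Btg2: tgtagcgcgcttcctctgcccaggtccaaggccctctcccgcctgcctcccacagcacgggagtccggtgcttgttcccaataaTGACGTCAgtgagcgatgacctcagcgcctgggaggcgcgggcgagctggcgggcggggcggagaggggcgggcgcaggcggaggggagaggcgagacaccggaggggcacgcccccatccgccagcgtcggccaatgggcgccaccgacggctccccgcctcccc
Ier3: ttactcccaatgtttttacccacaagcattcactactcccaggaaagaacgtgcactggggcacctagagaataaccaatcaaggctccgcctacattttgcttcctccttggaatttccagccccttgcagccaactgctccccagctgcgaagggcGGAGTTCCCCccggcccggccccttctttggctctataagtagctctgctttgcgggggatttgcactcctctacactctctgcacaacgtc
Klf2: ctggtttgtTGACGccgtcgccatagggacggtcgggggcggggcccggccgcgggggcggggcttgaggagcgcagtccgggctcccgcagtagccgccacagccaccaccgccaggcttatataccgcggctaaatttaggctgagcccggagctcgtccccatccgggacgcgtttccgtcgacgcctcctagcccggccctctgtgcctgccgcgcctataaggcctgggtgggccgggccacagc
Btg1: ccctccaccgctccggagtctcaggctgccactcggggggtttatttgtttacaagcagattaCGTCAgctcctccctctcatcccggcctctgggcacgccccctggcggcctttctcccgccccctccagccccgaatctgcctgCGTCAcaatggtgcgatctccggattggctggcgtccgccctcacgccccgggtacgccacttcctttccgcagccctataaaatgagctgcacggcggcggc

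A promoter sequence was at hand for 7 of the 10 genes, and both strands were searched. TGACGTCA was found in 1 of the 7, Btg2, where it starts 166 bases before the transcript, against 1.55% of 32851 promoters of the same length. TGACG was found in Btg2, Btg1, Klf2 and Klf4, which is 57.1% of the 7 genes against 17.8% of all promoters. In Btg2 the pair of TGACG matches are the overlapping arms of the full element. The NF-κB consensus was found in Ier3, with its first base at −92, against 3.9% of all promoters. TGANTCA, the element of AP-1, and the CArG box of serum response factor were found in 0 of the 7, against 6.75% and 1.47% of all promoters. GGGCGG, the core of a GC box, was present in all 7, against 32.7%. These matches describe letters in a window and not binding.

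Levels were compared between genes in TPM, which corrects for transcript length. Ier3 and Btg1 had the highest mean levels in KO at 0, 298.6 ± 160 and 263.8 ± 38.7 TPM (SD, n = 3), and their ranges overlapped. Ier2 followed at 110.1 ± 20.7 TPM and Klf10 at 107 ± 36.0 TPM, again with overlapping ranges. At the low end Klf2 was at 5.18 ± 1.66 TPM and Btg2 at 2.70 ± 1.36 TPM, which overlapped. Klf4 was lowest in all 6 groups, between 0.0642 TPM in KO at 0 and 0.562 TPM in WT at 20.

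The order at 20 was different at both ends of the list. Ier3 and Ier2 stood at 2394 ± 824 and 1912 ± 227 TPM in KO and at 1589 ± 869 and 1647 ± 542 TPM in WT, above Btg1 at 356.6 ± 21.2 TPM in KO and 242.7 ± 76.0 TPM in WT. Btg2 reached 79.7 ± 46.6 TPM in KO and 47.4 ± 15.6 TPM in WT, a range that overlapped those of Ier5 and Klf6 in KO. Myc, by contrast, stayed near the bottom at 10.5 ± 3.69 TPM in KO and 8.86 ± 5.96 TPM in WT, with only Klf4 below it. At 60 Myc had 41.0 ± 9.44 TPM in KO and 39.4 ± 22.9 TPM in WT, which overlapped the values of Ier5 in KO and of Klf6 in WT.

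**Figure D1:**
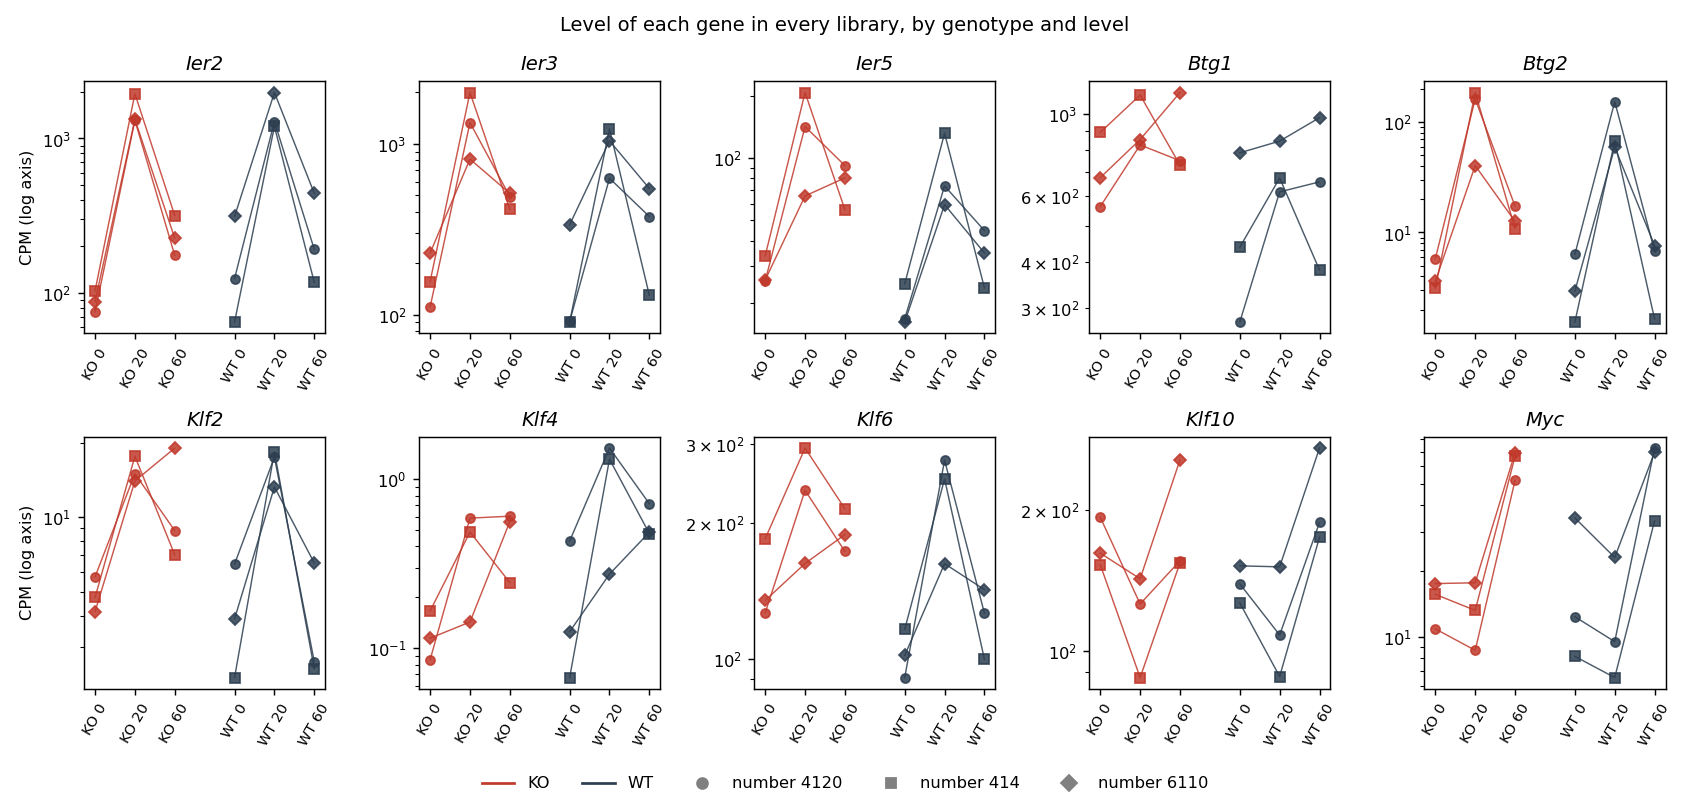
CPM of each of the 10 genes (vertical, log axis) in every library, KO in red and WT in dark blue, at 0, 20 and 60; lines join the libraries of one genotype and number, and marker shapes give the number. The 3 IER genes and Btg2 peak at 20 in all 6 series except Ier5 in KO number 6110, while Myc is highest at 60 in all 6.

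The first question was how the genes differed from level 0 within each genotype. At 20, 4 of the 10 genes rose in KO (Ier2, Ier3, Ier5 and Btg2) and 3 rose in WT (Ier2, Ier5 and Btg2). None fell in either genotype by edgeR's quasi-likelihood test with Benjamini-Hochberg adjustment over all genes and a threshold of 0.05. Of all genes tested, 0.443% rose and 0.00583% fell in KO, and 0.6% rose and 0.0% fell in WT. The median difference of the 10 genes was 1.69 on the log2 scale in KO and 2.09 in WT, against −0.028 and −0.023 for all genes tested.

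Ier2 encodes a small nuclear protein that is one of the fastest markers of receptor signalling. It was counted at 75.2, 103 and 87.8 CPM in KO at 0, at 1311, 1948 and 1328 CPM at 20 and at 175, 316 and 226 CPM at 60 (numbers 4120, 414 and 6110). WT libraries had 124, 64.8 and 313 CPM at 0, 1288, 1197 and 1985 CPM at 20 and 191, 117 and 441 CPM at 60. The values at 20 stood clear of those at 0 and 60 in both genotypes, and the 3 WT libraries at 0 were spread more widely than the KO ones. Ier2 rose at 20 by 4.11 ± 0.57 in KO (log2 fold change ± SE, adjusted p = 0.00116, edgeR) and by 3.16 ± 0.55 in WT (adjusted p = 0.00918). Within single numbers the fold at 20 was 15.1 to 18.9 in KO and 6.35 to 18.5 in WT.

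Ier3, which modulates cell death and ERK signalling, had 111, 156 and 230 CPM in KO at 0, 1332, 1998 and 814 CPM at 20 and 491, 414 and 513 CPM at 60. In WT it had 91.2, 90.5 and 336 CPM at 0, 629, 1223 and 1042 CPM at 20 and 375, 130 and 548 CPM at 60. Number 6110 was the highest at 0 in both genotypes, and the ranges at 20 and 0 did not overlap. The difference at 20 was 3.06 ± 0.59 in KO, which passed (adjusted p = 0.0224, edgeR), and 2.48 ± 0.57 in WT, which did not (adjusted p = 0.0753, 0.0112 without WT number 6110 at 0).

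Ier5, a nuclear regulator that shares an N-terminal domain with Ier2, had 25.5, 33.7 and 25.8 CPM in KO at 0, 142, 208 and 65.7 CPM at 20 and 92.1, 56.4 and 80.3 CPM at 60. In WT it had 16.7, 24.7 and 16.2 CPM at 0, 73.4, 132 and 59.7 CPM at 20 and 44.7, 23.6 and 34.8 CPM at 60. Number 414 was the highest at 20 and the lowest at 60 in both genotypes. The gene rose at 20 by 2.29 ± 0.39 in KO (adjusted p = 0.00852, edgeR) and by 2.2 ± 0.39 in WT (adjusted p = 0.0122).

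Btg2 had the largest fold of the 10 genes at 20 in both genotypes. It was counted at 5.80, 3.12 and 3.63 CPM in KO at 0, at 162, 185 and 40.4 CPM at 20 and at 17.3, 10.8 and 12.6 CPM at 60. WT libraries had 6.34, 1.54 and 2.94 CPM at 0, 153, 67.0 and 59.3 CPM at 20 and 6.81, 1.64 and 7.61 CPM at 60. The lowest library at 20, number 6110, was still several-fold above every library at 0. Btg2 rose at 20 by 4.95 ± 0.71 in KO (adjusted p = 0.00151, edgeR) and by 4.72 ± 0.70 in WT (adjusted p = 0.00244). Its fold within single numbers was 11.1 to 59.5 in KO and 20.1 to 43.4 in WT.

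Btg1, the other member of the family measured here and one that is abundant in resting cells, moved little. It had 563, 892 and 674 CPM in KO at 0, 825, 1125 and 854 CPM at 20 and 749, 728 and 1142 CPM at 60. In WT it had 275, 438 and 786 CPM at 0, 617, 673 and 845 CPM at 20 and 657, 380 and 977 CPM at 60. The ranges overlapped between all levels in both genotypes. The difference at 20 was 0.40 ± 0.37 in KO and 0.51 ± 0.37 in WT, neither of which passed (adjusted p = 1.0 in each, edgeR), although all 6 pairs of libraries of one number were higher at 20.

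Klf2, a factor that keeps lymphocytes quiescent and restrains inflammatory genes in myeloid cells, had 5.74, 4.74 and 4.15 CPM in KO at 0, 15.0, 17.6 and 14.0 CPM at 20 and 8.82, 7.04 and 19.0 CPM at 60. In WT it had 6.46, 2.25 and 3.88 CPM at 0, 17.5, 18.3 and 13.2 CPM at 20 and 2.60, 2.44 and 6.52 CPM at 60. All libraries at 20 were above all libraries at 0, and 1 KO library at 60, number 6110, was above those at 20. The difference at 20 was 1.67 ± 0.44 in KO (adjusted p = 0.216, edgeR) and 1.97 ± 0.44 in WT (adjusted p = 0.064, 0.0496 without WT number 4120 at 0). Neither passed the threshold in edgeR, whereas both passed in DESeq2, with adjusted p of 0.0203 and 0.00158.

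Klf6, which promotes inflammatory gene expression in macrophages, had 237, 294 and 163 CPM in KO at 20, against 126, 185 and 135 CPM at 0. In WT it had 276, 251 and 163 CPM at 20, against 90.7, 116 and 102 CPM at 0. The ranges overlapped in KO and did not in WT. The differences were 0.64 ± 0.25 in KO (adjusted p = 1.0, edgeR) and 1.16 ± 0.25 in WT (adjusted p = 0.0511, 0.0259 without WT number 6110 at 20). Klf4, a pluripotency factor that also acts in monocytes, was near the detection floor with 36 counts in KO and 86 counts in WT over the 3 libraries at 20, against 12 and 13 counts at 0. The floor of 3 counts was 0.0688 to 0.184 CPM, and intervals set by it cover counting error only.

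Klf10, a zinc finger factor induced by TGF-β, had lower values at 20. It had 126, 87.6 and 143 CPM in KO at 20, against 193, 153 and 162 CPM at 0. WT libraries had 108, 88.0 and 151 CPM at 20, against 139, 127 and 152 CPM at 0. Every one of the 6 pairs of one number was lower at 20, with folds of 0.573 to 0.881 in KO and 0.695 to 0.995 in WT. The differences of −0.51 ± 0.26 in KO and −0.27 ± 0.26 in WT did not pass (adjusted p = 1.0 in each, edgeR). The annotation places the transcript Gm35248 over part of Klf10, so that some of its reads may be shared.

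Myc did not pass at 20 in either genotype, with differences of −0.15 ± 0.51 in KO and −0.51 ± 0.51 in WT (adjusted p = 1.0 in each, edgeR). It had 8.69, 13.2 and 17.7 CPM in KO at 20, against 10.9, 15.6 and 17.5 CPM at 0. WT libraries had 9.52, 6.53 and 23.0 CPM at 20, against 12.4, 8.16 and 34.9 CPM at 0, and the ranges overlapped in both genotypes.

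Ranges that did not overlap were counted alongside the test. At 20, 5 of the 10 genes in KO and 6 in WT lay wholly above level 0, against 4.2% and 5.46% of all genes. Klf10 in KO was the only one that lay wholly below, against 3.9% of all genes in KO, and in WT there was none against 4.35%. Within a genotype the libraries of one number deviated together at 20 and 0. With the number as a block 6 genes rose in WT, with Ier3 (adjusted p = 0.0282), Klf2 (0.0349) and Klf6 (0.0258) in addition, against 0.88% of all genes, and the same 4 genes rose in KO, against 0.606%.

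The calls at 20 rested on few libraries. In KO, Ier2 and Btg2 passed without any single library, while Ier5 did not pass without number 4120 or 6110 at 0 or number 414 at 20 (adjusted p = 0.0604 to 0.0879, edgeR). Ier3 did not pass in KO without any 1 of the libraries at 0, or number 4120 or 414 at 20 (0.0639 to 0.211). In WT, Btg2 passed without any single library. Ier2 did not pass without number 4120 or 414 at 0 (0.0823 and 0.0542), nor Ier5 without number 4120 or 6110 at 0 or number 414 at 20 (0.0851, 0.0747 and 0.0799). With number 4120 left out of every group, 0 of the 10 genes passed in any comparison within a genotype. The share of all genes that passed was then 0.135% in KO and 0.129% in WT at 20 against 0, 0.118% and 0.0% at 60 against 0, and 0.00588% and 0.0118% at 60 against 20. The differences at 20 were then 4.10 ± 0.83 in KO and 3.08 ± 0.79 in WT for Ier2, and 5.06 ± 0.84 and 4.81 ± 0.84 for Btg2. Without the 5 libraries over 20% mitochondrial, Ier2 and Btg2 passed at 20 in KO and Btg2 in WT, and 0 of the 10 genes passed at 60 against 0 or 20 in either genotype. In the same order of comparisons, 0.282% and 0.3%, 0.605% and 0.0%, and 0.2% and 0.0705% of all genes passed. The differences at 20 that no longer passed were 3.02 ± 0.60 for Ier3 and 2.43 ± 0.48 for Ier5 in KO, and 3.07 ± 0.66 for Ier2 and 2.22 ± 0.50 for Ier5 in WT, and that of Myc at 60 in KO was 2.09 ± 0.67.

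**Figure D2:**
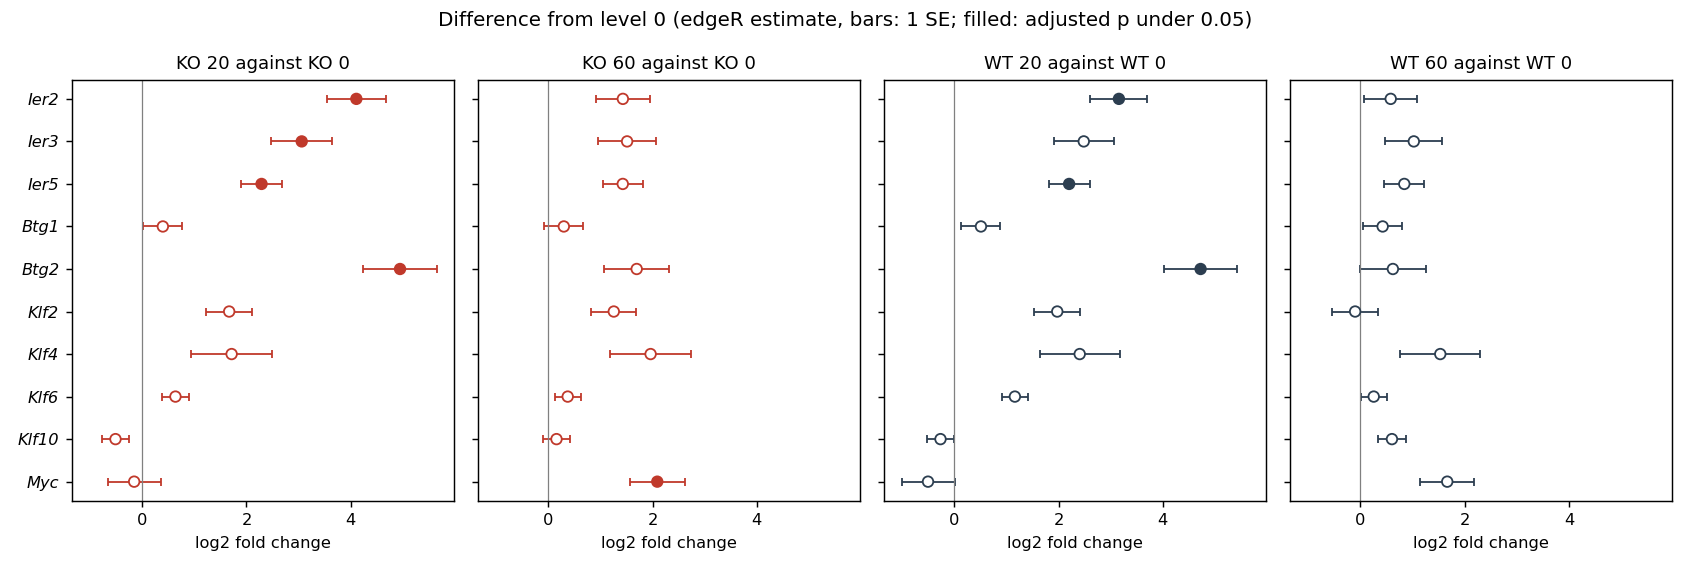
Difference from level 0 on the log2 scale (horizontal) of the 10 genes in KO at 20 and 60 and in WT at 20 and 60, with bars of 1 SE and filled points where the edgeR adjusted p was under 0.05. Filled points are 4 in KO at 20, 1 in KO at 60 (Myc), 3 in WT at 20 and 0 in WT at 60.

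At 60, Myc alone of the 10 genes passed against level 0 in KO, and none passed in WT, by edgeR without a block. The corresponding shares of all genes were 1.99% higher and 0.554% lower in KO, and 0.198% higher and 0.0233% lower in WT. Of the 10 genes, 7 in KO and 3 in WT had an unadjusted p under 0.05, against 14.2% and 7.94% of all genes, and DESeq2 called 2 in KO (Ier5 and Myc), against 4.23% of all genes that rose by that tool, and 0 in WT, against 1.74% in either direction. All 10 differences were positive in KO and 9 of 10 in WT, with medians of 1.43 and 0.61, against 0.0011 and −0.021 for all genes tested.

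Myc had 51.7, 66.6 and 69.3 CPM in KO at 60, against 10.9, 15.6 and 17.5 CPM at 0. In WT it had 72.6, 33.9 and 69.5 CPM at 60, against 12.4, 8.16 and 34.9 CPM at 0. The KO ranges stood far apart, while in WT the lowest library at 60, number 414, lay just under the highest at 0, number 6110. Myc rose in KO by 2.09 ± 0.52 (adjusted p = 0.0445, edgeR) and stood at 1.66 ± 0.52 in WT (adjusted p = 0.275). The KO call was lost without any 1 of the 6 libraries, with adjusted p of 0.0849 to 0.205. The fold within single numbers was 3.96 to 4.76 in KO and 1.99 to 5.87 in WT. The WT libraries at 60 and 0 share only a number, with correlations of 0.023 to 0.71, so the WT folds are not those of established pairs.

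The genes that had risen at 20 had mean levels at 60 between those at 0 and 20. In WT, however, the ranges of Ier2, Ier3, Ier5 and Btg2 at 60 overlapped those at 0. In KO number 6110, Ier5 was higher at 60 (80.3 CPM) than at 20 (65.7 CPM). In KO the difference from 0 was 1.43 ± 0.51 for Ier2, 1.51 ± 0.55 for Ier3, 1.43 ± 0.38 for Ier5 and 1.70 ± 0.62 for Btg2 (adjusted p = 0.183, 0.195, 0.063 and 0.198, edgeR). In WT the same differences were 0.58 ± 0.51, 1.02 ± 0.55, 0.84 ± 0.38 and 0.62 ± 0.63 (adjusted p = 0.908, 0.716, 0.607 and 0.936). The sign of the Ier2 value in WT turned to −0.12 without WT number 6110 at 60.

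Among the Krüppel-like factors at 60, Klf2 stood at 1.26 ± 0.43 in KO and −0.10 ± 0.44 in WT (adjusted p = 0.158 and 1.0, edgeR). Its WT value turned positive without WT number 4120 at 0 (0.36), number 4120 at 60 (0.12) or number 414 at 60 (0.17). Klf6 stood at 0.37 ± 0.25 in KO and 0.25 ± 0.25 in WT, and Klf10 at 0.16 ± 0.26 and 0.60 ± 0.26. At 60, Klf10 had 156, 154 and 256 CPM in KO and 188, 175 and 272 CPM in WT, so that its WT libraries at 60 lay wholly above those at 0. The sign of the KO value was negative without KO number 6110 at 60 (−0.13), when library sizes were not scaled (−0.071), and with FPKM (−0.13) or TPM (−0.14). Klf4 had 47 and 50 counts in the KO and WT libraries at 60, and Btg1 stood at 0.30 ± 0.37 in KO and 0.43 ± 0.37 in WT.

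Of the 10 genes, 7 in KO lay wholly above level 0 at 60 (Ier2, Ier3, Ier5, Btg2, Klf2, Klf4 and Myc), against 9.18% of all genes, and 2 in WT (Klf4 and Klf10), against 5.41%. For Klf4 few counts set the ranges apart. Its library with the fewest counts at 60 held 4 in KO and 9 in WT. The library with the most counts at 0 held 5 in KO and 7 in WT, so in KO only the scaling of library sizes separated them. None of the 10 genes lay wholly below, against 10.3% of all genes in KO and 4.8% in WT. Libraries of one number deviated together in this KO comparison, and with the number as a block Ier5 passed as well as Myc (adjusted p = 0.0235 and 0.00424), against 4.21% of all genes that rose. With the number within each genotype as the block Ier2 and Btg2 also passed (0.00237 and 0.0306), against 5.77%.

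Set directly against 20, level 60 showed 2 of the 10 genes lower in both genotypes by edgeR, Ier2 and Btg2. In WT, DESeq2 called 5 lower, with Ier5, Klf2 and Klf6 in addition (adjusted p = 0.0277, 0.000588 and 0.026), and Klf10 and Myc higher (0.0425 and 0.00212), against 1.23% lower and 1.0% higher of all genes by that tool. By edgeR, 0.361% of all genes fell in KO and 0.286% in WT, and 0.752% and 0.157% rose. Ier2 fell by 2.68 in KO (log2, SE 0.54, adjusted p = 0.0235, edgeR) and by 2.58 in WT (SE 0.53, adjusted p = 0.0438). Btg2 fell by 3.25 in KO (SE 0.65, adjusted p = 0.0235) and by 4.10 in WT (SE 0.68, adjusted p = 0.00892). The ranges of both genes at 60 and 20 did not overlap in either genotype, so every number necessarily showed these directions. Btg2 in WT passed without any single library. The KO call for Ier2 was lost without any 1 of its 6 libraries (adjusted p = 0.0649 to 0.116) and that for Btg2 without any but KO number 6110 at 20 (0.0827 to 0.113). The WT call for Ier2 held only without WT number 6110 at 60 (0.09 to 0.187 without each of the others).

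Myc and Klf10 were the genes with the opposite sign in both genotypes. Myc at 60 against 20 stood at 2.24 ± 0.53 in KO (adjusted p = 0.0534, edgeR) and 2.17 ± 0.53 in WT (adjusted p = 0.0977, 0.0468 without WT number 6110 at 20), with folds of 3.92 to 5.95 and 3.02 to 7.63 within single numbers. With the number as a block it passed in KO (adjusted p = 0.00453), which brought the KO calls to 1 higher and 2 lower, against 2.04% and 0.997% of all genes. Klf10 stood at 0.67 ± 0.26 in KO and 0.87 ± 0.27 in WT (adjusted p = 0.345 and 0.243). Both genes had non-overlapping higher ranges at 60 in both genotypes, against 8.58% of all genes in KO and 5.25% in WT.

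Lower ranges at 60 that did not overlap those at 20 were found for 3 genes in KO (Ier2, Ier3 and Btg2), against 8.61% of all genes. In WT there were 6 (the same 3 with Ier5, Klf2 and Klf6), against 6.1%. The difference for Klf2 was −0.41 ± 0.42 in KO and −2.08 ± 0.44 in WT (adjusted p = 0.89 and 0.0562, edgeR, and 0.0147 in WT without number 6110 at 60). The median of the 10 genes was −0.34 in KO and −1.13 in WT, against 0.014 and 0.0076 for all genes.

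**Figure D3:**
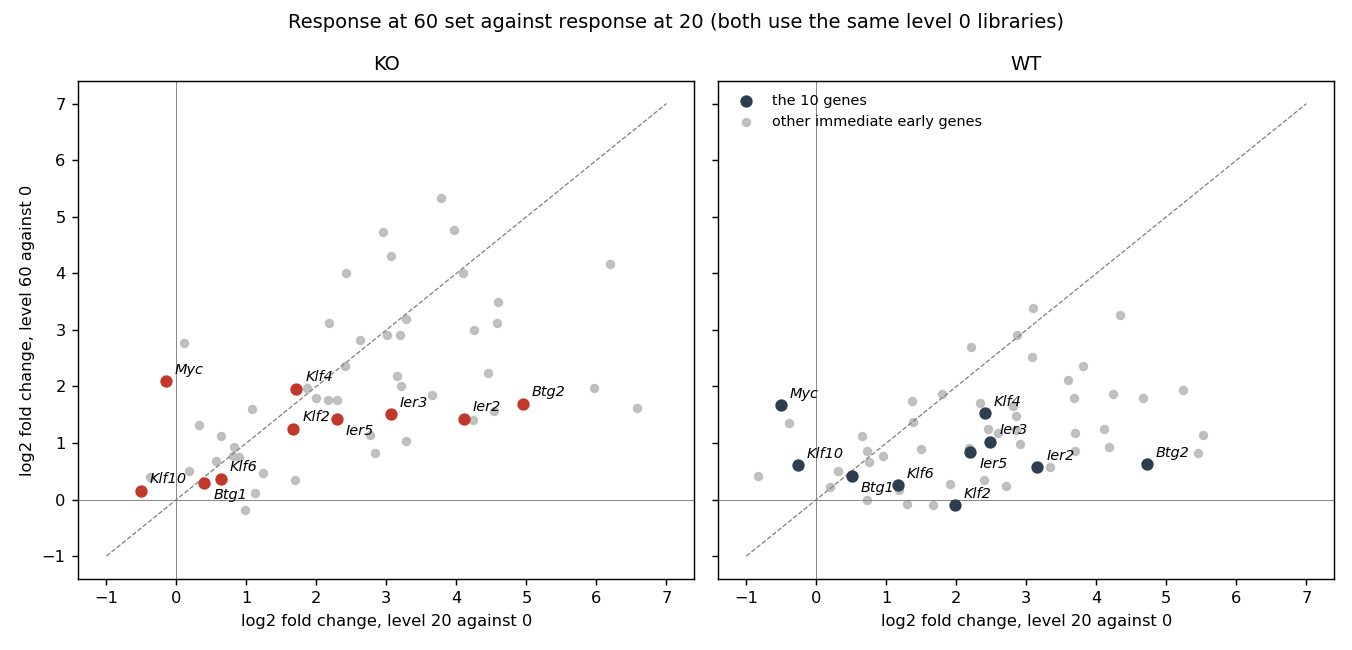
Log2 difference from level 0 at 20 (horizontal) and at 60 (vertical) for the 10 genes (coloured and named) and 45 other immediate early genes (grey), KO left and WT right; the dashed line marks equal values, and both axes share the libraries at 0. Myc lies at the upper left in both panels, at −0.15 and 2.09 in KO and −0.51 and 1.66 in WT, and Btg2 far to the right and low, at 4.95 and 1.70 in KO and 4.72 and 0.62 in WT.

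The second question was whether the genotype mattered for these genes. None of the 10 passed between KO and WT at 0, 20 or 60 by edgeR, against 0.274%, 0.21% and 0.268% of all genes. At an unadjusted p under 0.05 there were 0, 0 and 4 of the 10 genes, against 12.1%, 7.79% and 10.7% of all genes. DESeq2 called 0, 0 and 1, the first 2 against 1.52% and 0.695% of all genes. The differences ran from −0.91 (Ier2) to 0.56 (Ier5) at 0, from −1.35 (Klf4) to 0.65 (Ier5) at 20 and from −0.23 (Klf4) to 1.59 (Klf2) at 60. The medians were 0.24, 0.037 and 0.40, against 0.0062, −0.020 and 0.023 for all genes tested.

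At 60 the ranges of 4 genes in KO lay wholly above those in WT (Klf2, Btg2, Ier5 and Klf6), against 7.34% of all genes, and none lay below, against 7.86%. At this level Klf2 had 8.82, 7.04 and 19.0 CPM in KO and 2.60, 2.44 and 6.52 CPM in WT. Btg2 had 17.3, 10.8 and 12.6 CPM in KO and 6.81, 1.64 and 7.61 CPM in WT. Ier5 had 92.1, 56.4 and 80.3 CPM in KO and 44.7, 23.6 and 34.8 CPM in WT. Since these ranges did not overlap, the KO library of each number necessarily exceeded its WT counterpart, which adds nothing to the ranges.

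The difference between KO and WT at 60 was 1.59 ± 0.44 for Klf2, with a 95% interval of 0.73 to 2.45 (adjusted p = 0.212, edgeR). It was the one call of DESeq2 (adjusted p = 0.035), against 0.583% of all genes that were higher in KO by that tool. For Btg2 it was 1.32 ± 0.62 (interval 0.12 to 2.53, adjusted p = 0.457), for Ier5 1.15 ± 0.38 (0.40 to 1.90, adjusted p = 0.315) and for Klf6 0.65 ± 0.25 (0.16 to 1.14, adjusted p = 0.375). Klf6 had 173, 215 and 189 CPM in KO and 126, 99.6 and 142 CPM in WT. Ier2 stood at −0.064 ± 0.50 (interval −1.05 to 0.92) and at 0.081 with the number as a block, and Myc at 0.091 ± 0.50 (−0.89 to 1.07). The sign of both turned under further settings.

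At 0 the KO ranges lay wholly above the WT ranges for Ier5, Klf6 and Klf10, against 5.94% of all genes, and for none below, against 7.14%. The differences were 0.56 ± 0.38, 0.53 ± 0.25 and 0.28 ± 0.26 (adjusted p = 0.565, 0.414 and 0.683, edgeR). At 20 the ranges overlapped for all 10 genes, where 8.35% of all genes lay wholly higher and 8.95% wholly lower in KO. Ier2 at 20 averaged 1529 ± 363 CPM in KO and 1489.7 ± 431 CPM in WT (SD, n = 3), a difference of 0.038 with an interval of −0.95 to 1.02, whose sign turned without single libraries of number 414 or WT number 4120.

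**Figure D4:**
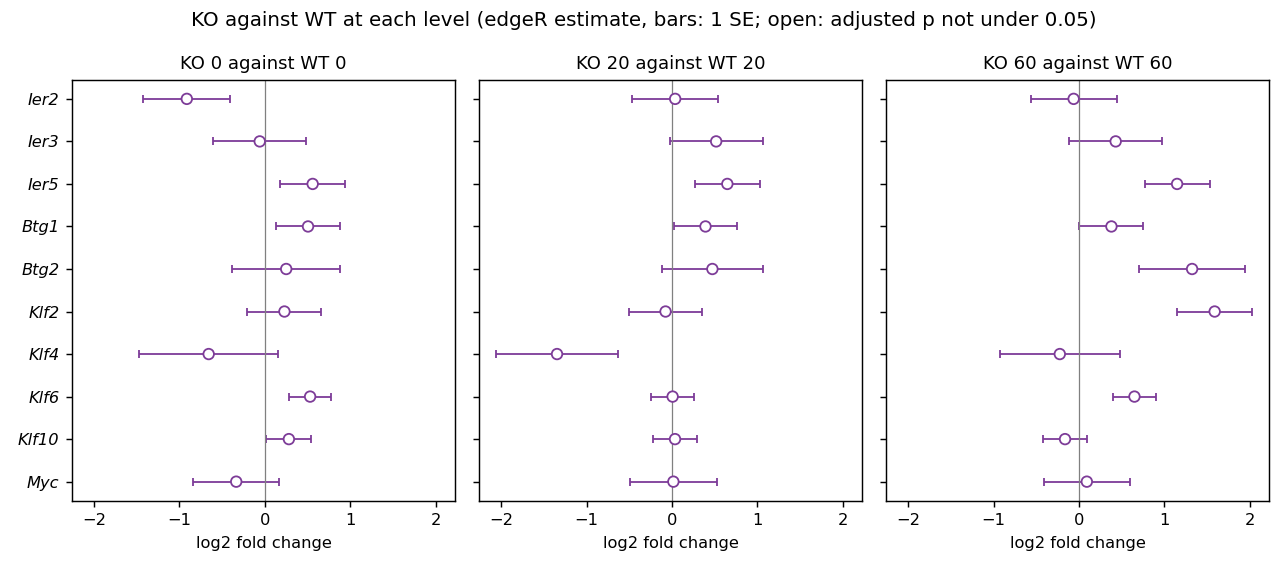
Difference between KO and WT on the log2 scale (horizontal, KO over WT) of the 10 genes at 0, 20 and 60, with bars of 1 SE; no edgeR adjusted p was under 0.05, so all points are open, and DESeq2 called Klf2 at 60. Klf2, Btg2 and Ier5 lie furthest to the right at 60, at 1.59, 1.32 and 1.15.

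The responses of the genotypes were also set against each other as the KO difference minus the WT difference. None of the 10 genes passed at 20, at 60 or between 20 and 60 by edgeR, where 0.0% of all genes passed, and DESeq2 also called 0 of the 10, against 0.00584%, 0.0117% and 0.0%. At an unadjusted p under 0.05 there were 0, 1 and 1 genes, the 1 being Klf2 in each case, against 0.396%, 1.1% and 0.897% of all genes. For Klf2 the difference in response was 1.36 ± 0.61 at 60 (interval 0.16 to 2.56) and 1.66 ± 0.61 between 20 and 60 (0.48 to 2.85), with an adjusted p of 1.0 in each. For Btg2 it was 1.07 ± 0.88 at 60 and for Ier5 0.59 ± 0.54, with intervals of −0.65 to 2.80 and −0.46 to 1.64. The values at 20 ran from −0.69 for Klf4 to 0.95 for Ier2.

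Markers of other cells were summed in each library. By edgeR without a block, 1 macrophage marker, Itgam, passed between KO and WT, at 0. No neutrophil, erythroid, basophil or lymphoid marker passed at any level in that test. By DESeq2, Lyz2 of the macrophage list was lower in KO at 0, 20 and 60 (adjusted p = 0.000956, 0.00297 and 0.000783). Its ranges did not overlap, and it passed with the number as a block (0.0254, 0.0279 and 0.0162). Lyz2 is the lysozyme M gene, whose promoter drives Cre in KO only, so its level cannot serve here as a measure of macrophages. Means of Adgre1, Itgam, Cd68 and Ly6c2 were higher in KO at each level. That of Ccr2 was lower at each level, and Csf1r and Fcgr1 changed direction between levels. At 0, DESeq2 also called Itgam, Ly6c2, Ly6g and Lcn2 higher and Itga2b lower in KO (0.00176, 0.00754, 0.0101, 0.0366 and 0.00636). With the block Itgam at 0 (0.0151), S100a9 at 0 and 20 (0.0354 and 0.0308) and Epor at 20 (0.0363) were higher. The summed level of 12 neutrophil and precursor markers was 7.85 to 27.6 CPM in KO libraries and 0.106 to 5.41 CPM in WT, with Elane and Retnlg at 0 in every WT group. The 9 erythroid and platelet markers summed to 2377 to 3844 CPM in KO and 4189 to 5897 CPM in WT. Most of both sums came from Itga2b. It averaged 3224, 3076 and 3163 CPM in KO at 0, 20 and 60, and 5514, 4801 and 4825 CPM in WT. Means of Epor, Hbb-bs and Hbb-bt were instead higher in KO at each level, at no more than 27.5 CPM. Hba-a1 was lower in KO at 0 and 20 and higher at 60. The 12 macrophage and monocyte markers summed to 87.5 to 289.4 CPM in KO and 39.5 to 210.9 CPM in WT, with Marco at 0 in all 6 groups. The ranges overlapped for these and for the 4 basophil markers, at 182.4 to 275.7 CPM in KO and 201.9 to 353.8 CPM in WT, and the 12 lymphoid and dendritic markers, at 3.97 to 6.94 CPM in KO and 3.85 to 8.31 CPM in WT. Most of the macrophage sum came from Cd68, and most of the basophil sum from Cd200r3 and Il3ra. Mcpt8 of the basophil list averaged 7.96, 5.70 and 14.0 CPM in KO at 0, 20 and 60, and 1.86, 2.28 and 2.38 CPM in WT. Its SD in KO at 60 was 17.5 CPM. Prss34 averaged 2.43, 2.14 and 4.64 CPM in KO, and 0.491, 0.481 and 0.513 CPM in WT. Il3ra was instead lower in KO at each level, and Cd200r3 at 20 and 60. The part of these markers in the differences between KO and WT was not tested. The mitochondrial share entered only as a covariate and through libraries left out. Without the 5 libraries over 20% mitochondrial, the difference at 60 was 1.62 ± 0.48 for Klf2, 1.05 ± 0.56 for Btg2, 1.12 ± 0.48 for Ier5 and 0.43 ± 0.30 for Klf6. None of these passed (adjusted p = 0.659 to 0.814, edgeR), against 0.112% of all genes.

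Over the 18 libraries, Pearson's r of log2 CPM was 0.91 between Ier2 and Ier3, 0.90 between Ier2 and Btg2, 0.89 between Ier5 and Klf6 and 0.88 between Btg2 and Klf2. Klf10 and Myc correlated at 0.73 with each other, Klf10 at −0.54 with Btg2, and Klf4 at 0.07 with Btg1. The points share levels, numbers and depth, so these values describe the libraries only.

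The genes of at least 5 CPM whose pattern over the 18 libraries was most like each member were also named. For Ier2 these were Zfp36, Tulp2 and Egr1 (r = 0.97, 0.97 and 0.96), and for Ier3 they were Dusp6, Zfp36 and Csrnp1 (0.96, 0.95 and 0.95). Btg2 was closest to Lif, Ccl2 and Dusp1 (0.97, 0.96 and 0.96), and Ier5 to Il6, Ccl4 and Cd69 (0.93 in each). For Klf2 they were Btg2, Nr4a1 and Tiparp (0.88, 0.88 and 0.87), and for Klf6 Ier5, Pdzd8 and Cd69 (0.89, 0.89 and 0.87). Myc was closest to Tor3a, Bag3 and Sema4b (0.95, 0.95 and 0.94). Btg1, Klf10 and Klf4 were closest to Tomm6 (0.95), Crls1 (0.85) and 4932438H23Rik (0.87).

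A list of 45 other immediate early genes was counted in the same comparisons. In KO 29 of the 45 rose at 20 and 25 at 60, against 0.443% and 1.99% of all genes. In WT 32 rose at 20 and 3 at 60, against 0.6% and 0.198% of all genes. From 20 to 60, 12 fell in KO and 15 in WT, against 0.361% and 0.286% of all genes. Fos, a subunit of AP-1, rose at 20 by 6.58 ± 0.40 in KO and 5.45 ± 0.38 in WT (adjusted p = 3.63e-07 and 1.38e-06, edgeR), and Egr2, a zinc finger factor, by 6.19 ± 0.51 and 5.24 ± 0.49. Between KO and WT none of the 45 passed at any level by edgeR, with medians of −0.18 at 0, 0.011 at 20 and 0.55 at 60. Maff, a small Maf factor, stood highest at 60, at 2.2 ± 0.52 (adjusted p = 0.108).

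Relatives of the 10 genes were counted as well. Of 28 listed IER, BTG/TOB, KLF and MYC relatives 23 were tested, and Btg4, Klf12, Klf14, Klf17 and Mycl were not because of low counts. At 20, none passed in KO, while Tob2, which like Btg2 binds the deadenylase, and Klf9 rose in WT by 1.59 ± 0.30 and 1.08 ± 0.23 (adjusted p = 0.019 and 0.0421, edgeR). At 60, Mycn, the close relative of Myc, rose by 2.12 ± 0.30 in KO and 1.76 ± 0.30 in WT (adjusted p = 0.00141 and 0.0228), and in KO Klf9 and Tob2 rose too (1.51 ± 0.23 and 1.72 ± 0.30). With the number as a block, Klf13 (1.44 ± 0.50 without it) also rose at 60 in KO, and Klf3 and Mxd1 (−0.65 ± 0.25 and −0.77 ± 0.21) fell, which made 6 calls in place of 3 (adjusted p = 0.0493, 0.0228 and 0.00621). At 60 Mycn averaged 31.2 CPM in KO and 36.4 CPM in WT, against 7.17 CPM and 10.7 CPM at 0. None of the relatives passed between KO and WT. Of all genes, 0.443% rose at 20 and 1.99% at 60 in KO by edgeR without a block, and 0.6% and 0.198% in WT. With the number as a block, 4.21% rose and 2.17% fell at 60 in KO.

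Known targets of p53 and of Myc were listed because Btg2 is a p53 target and because Myc drives growth genes. Of 17 p53 targets, Plk3, a stress kinase, and Cdkn1a, the inhibitor p21, rose at 20 in both genotypes, by 2.65 ± 0.42 and 2.07 ± 0.37 in KO and by 2.24 ± 0.41 and 1.95 ± 0.36 in WT. Of all genes, 0.443% rose at 20 in KO and 0.6% in WT. At 60, 4 of the 17 rose in KO (Eda2r, Plk3, Cdkn1a and Sesn2), against 1.99% of all genes, and 0 in WT, against 0.198%. With the number as a block Mdm2, Plk2 and Pmaip1 rose in KO too (adjusted p = 0.0447, 0.014 and 0.0011, edgeR), against 4.21% of all genes. Of 18 Myc targets of growth, 0 passed at 20, where 0.449% of all genes passed in KO and 0.6% in WT. At 60 in KO, Odc1, the first enzyme of polyamine synthesis, rose by 2.12 ± 0.35, Eif4e, the cap-binding protein, by 1.82 ± 0.31 and Fbl, a nucleolar methyltransferase, by 1.40 ± 0.21 (adjusted p = 0.00346, 0.00422 and 0.00207, edgeR), while Polr1b fell. Of all genes, 1.99% rose and 0.554% fell at 60 in KO. With the number as a block Nolc1 and Ccnd2 also rose (adjusted p = 0.00415 and 0.0317), against 4.21% of all genes. In WT at 60 none passed, against 0.221% of all genes, with Odc1 at 1.70 ± 0.35 (adjusted p = 0.056) and Eif4e at 1.33 ± 0.31 (adjusted p = 0.105).

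The transcripts of the 10 genes were short in exon number. The chosen transcript had 1 exon for Ier2 and Ier5, 2 for Ier3, Btg1 and Btg2, 3 for Klf2 and Myc, 4 for Klf6 and Klf10 and 5 for Klf4, in the GENCODE M21 annotation of GRCm38. The median was 2.5 exons, against 4.0 for the other immediate early genes and 9.0 for 12903 tested protein-coding genes. Of the 10 genes, 50.0% had at most 2 exons, against 7.01% of tested protein-coding genes. In bases they were not short, with a median transcript of 2886, against 2956 for the other immediate early genes and 3008 for tested protein-coding genes. ATTTA, the core of an AU-rich element that marks unstable mRNA, was present in the 3′ UTR of 9 of the 10 genes (90.0%), against 66.7% of the 12781 tested coding genes with a 3′ UTR. Ier2 was the exception with 0, Ier3 had 5 in 613 bases, or 8.16 per kb, and Btg1 had 11 in 4166 bases, or 2.64 per kb. The longer TATTTAT was present in 50.0% of the genes, against 28.1% of tested coding genes. Of the other immediate early genes, 86.7% had ATTTA and 62.2% had TATTTAT, so neither was particular to the 10 genes.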

How the data were processed

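The authors deposited 1 table of 45777 genes with a read count, an FPKM and a TPM per library, per the file headers. The counts were not normalized by the authors, while the deposited FPKM and TPM values are scaled for transcript length and depth. Tools listed in the submitters' processing notes were HISAT2 2.1.0, StringTie 2.1.3b, bcl2fastq 2.20.0 and FastQC 0.11.7, with mm10 as the build. Strand is not given in the sources used here. All 54 value columns were mapped to libraries.

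The members and all gene lists were chosen with earlier results of these data known. Counts were filtered with filterByExpr, scaled with TMM and fitted with 1 mean per group over all 18 libraries by quasi-likelihood in edgeR 4.0.16 (R 4.3.3), with Benjamini-Hochberg adjustment over 17159 genes. CPM use TMM-scaled sizes, log2 CPM a prior count of 2, and 95% intervals are 1.96 SE to each side. That multiplier belongs to a normal distribution, so with this few libraries the intervals are somewhat too narrow. Alternatives were DESeq2 1.42.0, limma 3.58.1 (voom, and log2 of FPKM + 1, TPM + 1 or TPM + 0.1), other scalings and filters, blocks, and libraries left out. The procedure was tested on simulated data. No 2 libraries of a group agreed within sampling noise (chi-square per gene at least 82.1).

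All 10 members are named. From each other list up to 4 genes with the smallest edgeR p are named, with Sirt6 always. Named in addition are genes that passed only by DESeq2 or with a block, genes not tested, and markers that make up a sum or differ from it. Libraries of one number were taken as paired where their deviations from the group means correlated above 0.1 for every number. This held for 20 against 0 and 60 against 0 and 20 in KO (0.33 to 0.67), 20 against 0 in WT (0.62 to 0.76) and KO against WT at 60 (0.43 to 0.53). Gene positions and exons come from GENCODE M21, with the CCDS-tagged and then the longest transcript, and promoters from RefSeq. Scripts ran in Python 3.11.15 with pandas 2.3.3, numpy 2.4.6 and matplotlib 3.10.9.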

Additional observations from a re-analysis of the deposited data

How the results depend on the processing

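Among the values of single genes under settings other than leaving out a library, 1297 kept their direction and their side of the threshold, 85 gained a call, 31 lost one and 22 turned their sign. The cause of these shifts was not tested. Counts of called genes out of the 10 that moved by more than 1.5 times were as follows, against 4, 1 and 2 for KO at 20 against 0, 60 against 0 and 60 against 20, and 3, 0 and 2 for the same WT comparisons. DESeq2 called 2 for KO 60 against 0, 6 for WT 20 against 0, 7 for WT 60 against 20 and 1 for KO against WT at 60. A threshold of 0.01 gave 0 for KO 60 against 0, 0 for KO 60 against 20 and 1 for WT 60 against 20, and a threshold of 0.1 gave 2 for KO 60 against 0, 6 for WT 20 against 0 and 4 for WT 60 against 20. Fits of only the compared groups gave 3, 1 and 0 for KO 60 against 0, WT 20 against 0 and WT 60 against 20. Unscaled library sizes, FPKM and both TPM settings each gave 2 for KO 20 against 0 and 0 for KO 60 against 0, and TPM + 0.1 gave 1 for KO 60 against 20. Limma-voom gave 6 for WT 20 against 0. A minimum mean of 1 CPM gave 2 for KO 60 against 0, and the mitochondrial share as a covariate gave 5 for WT 20 against 0.

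With the replicate number as a block the counts were 2 for KO 60 against 0, 6 for WT 20 against 0, 1 for WT 60 against 0 (Myc, adjusted p = 0.0311, and 0.00243 with the number within a genotype as the block) and 5 for WT 60 against 20 (Ier2, Btg2 and Klf2 lower, Klf10 and Myc higher). With the number within a genotype as the block they were 4 for KO 60 against 0, 4 for KO 60 against 20, 6, 1 and 6. The number block with the mitochondrial share gave 3, 4, 6, 1 and 6, and limma-voom with the number within a genotype as a random effect 6, 4, 6, 1 and 7, in the same order. The WT libraries at 60 share only a number with those at 0 and 20, with correlations from 0.0095 to 0.71. The number block changed no other count of calls by more than 1.5 times.

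Leaving out libraries gave 0 to 4 calls for KO 20 against 0, 0 for KO 60 against 0, 0 to 1 for KO 60 against 20, 0 to 4 for WT 20 against 0 and 0 to 3 for WT 60 against 20. Without number 4120 in every group all of these counts were 0. Without the 5 libraries over 20% mitochondrial, a setting chosen after seeing the data, they were 2, 0, 0, 1 and 0.

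Among the values printed for single genes, the following turned their sign. Klf10 at 60 against 0 in KO was −0.071 with unscaled sizes, −0.13 with FPKM, and −0.14 with TPM + 0.1 and with TPM + 1, and Klf6 in the difference in response at 60 was −0.010, −0.031, −0.033 and −0.032 in that order. With unscaled sizes the median over all genes moved by −0.22 in KO 60 against 0 and by 0.16 between KO and WT at 0 and at 20. Without the libraries over 20% mitochondrial, Btg1 was 0.016 for KO 60 against 20 and 0.11 for WT 60 against 20, Klf2 0.57 for WT 60 against 0, Btg2 −0.016 for the difference in response at 60, Ier2 −0.048 for KO against WT at 20 and Myc −0.23 at 60. Ier2 for KO against WT at 60 was 0.094 with FPKM, 0.19 with both TPM settings, 0.16 with limma-voom, 0.15 with the number within a genotype as a random effect, 0.081 with the replicate block and 0.22 with the block and the mitochondrial share. With that share as a covariate Myc at 60 was −0.0078. Leaving out libraries gave −0.42 to 0.074 for Myc at 20 in KO and −1.21 to 0.36 in WT, −0.39 to 0.16 for Btg1 at 60 against 20 in KO and −0.47 to 0.21 in WT, and −0.14 to 0.38 for Klf10 at 60 in KO. It gave −0.29 to 0.67 for Klf4 at 60 against 20 in KO, −0.46 to 0.049 for Klf4, −0.67 to 0.67 for Ier2 and −0.24 to 0.39 for Myc between KO and WT at 60, −0.30 to 0.41 for Ier2 between them at 20, −0.75 to 0.56 for Klf2 and −0.12 to 1.41 for Ier2 at 60 in WT. In the differences in response it gave −0.037 to 0.29 for Klf6 at 60, −0.49 to 0.033 for Klf10 from 20 to 60 and −1.84 to 0.046 for Klf4 at 20. Depth limits Klf4, whose libraries held few counts, more than any of the other genes.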

Other observations

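Few genes of the other lists passed. Of 15 tested genes of the CCR4-NOT deadenylase and its partners, to which Btg1 and Btg2 bind, 0 passed in any comparison within or between genotypes by edgeR without a block. In these comparisons 0.21% to 2.54% of all genes passed. The smallest unadjusted p within a genotype belonged to Cnot11 at 60 against 20 in WT, at 0.59 ± 0.18 (adjusted p = 0.246). Of 15 genes from the ERK kinases to serum response factor, Crem, a cyclic AMP responsive factor, rose at 60 in KO by 1.16 ± 0.28 (adjusted p = 0.0346), against 1.99% of all genes. At 60 it averaged 155.9 CPM in KO and 119 CPM in WT, and Srf stood at 1.12 ± 0.42 in KO and 0.86 ± 0.42 in WT against 0 (adjusted p = 0.202 and 0.644). Of 7 sirtuins, 0 passed by edgeR without a block. Sirt4, a mitochondrial one, stood at −1.19 ± 0.34 at 60 against 0 in KO (adjusted p = 0.0824) and passed there with the number as a block (0.0335), with the number within a genotype as a block (0.00506) and in DESeq2 (0.0246). Sirt6 stood at −0.50 ± 0.22 in that comparison (adjusted p = 0.305, and 0.0449 with the number within a genotype as a block).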
